A study of Mus musculus with 20 samples.

Results

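Heat shock proteins and DnaJ chaperones were examined in hippocampal nuclei of awake and anesthetized mice. The 78 members, of 32285 genes listed, were chosen by gene symbol alone: 14 Hsp70 and Hsp110 genes, 3 Hsp90 genes, 8 small heat shock proteins, 3 genes of the mitochondrial chaperonin family, 45 DnaJ genes (4 of class A, 13 of class B and 28 of class C) and 5 heat shock factors. Pseudogenes were left out. Together the members gave 1166336 unique molecular identifiers (UMIs, the RNA molecules counted), from 13 for the rarest member to 119800 for Dnajc1, and 5 members had fewer than 100.

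The hippocampus of 20 male mice was profiled by single nuclei RNA-sequencing, 1 library per mouse. By their labels, 9 mice carried the APPSwe and PS1ΔE9 transgenes of the APP/PS1 model of familial Alzheimer's disease (fAD) and 11 were wild-type (WT) littermates, all aged 4.5 to 5.5 months. Mice were awake (6 WT-Awake, 3 fAD-Awake), under isoflurane for 3 h (5% reduced to 1.5%, 3 WT-Iso and 4 fAD-Iso) or under ketamine at 150 mg/kg with xylazine at 12 mg/kg for 3 h (2 WT-Ket and 2 fAD-Ket). Body temperature is not among the labels. In this model the transgenes are driven by the promoter of Prnp, and the Prnp level is used here as a check: it was 42.2 to 196 CPM (counts scaled to library size, median 78.5) in mice labelled WT and 63.6 to 433 (median 190) in mice labelled fAD, of which 5 lay below the highest WT mouse. Genotype directions therefore rest on the labels.

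Chaperones bind unfolded or partly folded proteins. Hsp70 proteins do so in cycles of ATP hydrolysis that DnaJ proteins start and exchange factors such as Hsp110 end, Hsp90 acts later on kinases, steroid receptors and other clients, and small heat shock proteins hold unfolded clients without ATP. Heat shock factors bind repeats of nGAAn, the heat shock element, and raise the inducible members after heat or other stress, while the chaperones of the endoplasmic reticulum (ER) answer to the unfolded protein response through the ER stress response element. In neurons, the DnaJ proteins auxilin (Dnajc6) and cysteine string protein (Dnajc5) serve the synaptic vesicle cycle with Hsc70 (Hspa8).

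Nuclei were assigned to classes by marker genes, and none of the markers was a member. Of 160777 nuclei, 104723 (65.1%) fell into 9 classes: 13492 CA1-like, 30977 dentate gyrus (DG)-like, 10313 CA3-like, 4535 inhibitory neuron-like, 20284 astrocyte-like, 17059 oligodendrocyte-like, 4252 oligodendrocyte precursor (OPC)-like, 3104 microglia-like and 707 endothelial-like. Of the markers kept aside as a check, 2 of 3 were highest in the CA1-like class, 3 of 4 in the CA3-like and inhibitory classes and 4 of 4 in each of the others. UMIs were summed per mouse and class, since nuclei of 1 mouse share their library. Levels are given as CPM of these sums, UMIs relative to a library size scaled by edgeR's TMM factors. The comparison between classes scaled the sums of all classes together and the comparisons between states scaled each class on its own, so the CPM of the same nuclei differ between them.

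Some libraries stood apart. Total UMIs per mouse were 9243992 to 25394891. Transcripts of the mitochondrial genome took 0.939% to 1.78% of UMIs in mice 1 to 4 (1 mouse of each Awake and Iso group) and 0.0353% to 0.336% in the other 16, so the fit holds a term for these 4 mice. All 4 ketamine mice (25 to 28) fall in a run of consecutive numbers whose only other mouse, 29, is WT-Awake. Fibroblast-like nuclei, gated on Slc6a13, Col1a2, Ranbp3l and Bnc2, made up 3.14% to 13.5% of the nuclei of the ketamine mice, 3.82% in mouse 29, 0.0944% to 3.18% in the other awake mice and 0.129% to 1.29% under isoflurane. Of 157472 barcodes, 3251 occurred in more than 1 library. Nothing in the labels says that the mice of a group came from separate litters or days, so p-values measure the spread between these mice.

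The promoters of members differ in the elements they hold, and 7 are shown here because their genes recur in the results. RefSeq starts were matched for 61 of the 78 members (78 promoters, 250 bases before to 50 after the start, GRCm38.p6). A pair of facing heat shock element units (GAANNTTC or TTCNNGAA, each its own reverse complement) was in 24.4% of member promoters, in 17 genes, beside 15.1% of 32851 promoters of all genes. Overlapping pairs that make up 3 contiguous units were in 7.69%, in Dnajb6, Hspd1, Hspe1 and Hsph1, beside 0.603%. The ER stress response element, CCAAT and CCACG with 9 bases between them on either strand, was in 3.85%, in Hspa5, Hsp90b1 and Dnajc3, beside 0.119%. A match describes letters only. The 160 bases before the start follow, 5′ to 3′ on the strand of the gene, with the matched letters of heat shock element pairs in capitals in Hspd1, Hspb1 and Hspa1b, those of the ER stress response element in capitals in Hspa5 and Dnajc3, and no match in Hsf3 and Hspa14.
Hspd1: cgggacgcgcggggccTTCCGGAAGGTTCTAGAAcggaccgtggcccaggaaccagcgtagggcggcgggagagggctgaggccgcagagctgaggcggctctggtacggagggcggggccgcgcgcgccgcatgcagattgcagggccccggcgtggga
Hspb1: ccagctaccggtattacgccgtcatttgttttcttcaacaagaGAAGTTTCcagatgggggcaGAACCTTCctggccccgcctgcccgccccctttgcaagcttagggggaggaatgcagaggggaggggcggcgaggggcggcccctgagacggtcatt
Hspa1b: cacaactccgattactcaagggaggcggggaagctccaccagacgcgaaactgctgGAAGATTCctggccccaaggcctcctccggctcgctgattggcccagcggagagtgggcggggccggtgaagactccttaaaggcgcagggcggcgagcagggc
Hspa5: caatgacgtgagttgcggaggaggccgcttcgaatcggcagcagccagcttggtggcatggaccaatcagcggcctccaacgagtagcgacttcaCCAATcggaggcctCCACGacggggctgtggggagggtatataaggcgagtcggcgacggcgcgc
Dnajc3: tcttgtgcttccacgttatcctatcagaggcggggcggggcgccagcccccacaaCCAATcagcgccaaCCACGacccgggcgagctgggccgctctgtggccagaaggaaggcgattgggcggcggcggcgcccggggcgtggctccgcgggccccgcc
Hsf3: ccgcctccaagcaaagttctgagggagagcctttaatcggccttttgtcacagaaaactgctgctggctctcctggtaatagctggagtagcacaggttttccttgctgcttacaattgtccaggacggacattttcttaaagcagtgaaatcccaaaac
Hspa14: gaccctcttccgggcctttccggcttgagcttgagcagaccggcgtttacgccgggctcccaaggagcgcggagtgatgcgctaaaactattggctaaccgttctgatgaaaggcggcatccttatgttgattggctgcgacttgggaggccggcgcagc
The Hspd1 sequence is at chr1:55087933-55088092 on the minus strand, Hspb1 at chr5:135887759-135887918 on the plus strand, Hspa1b at chr17:34959239-34959398 on the minus strand, Hspa5 at chr2:34771930-34772089 on the plus strand, Dnajc3 at chr14:118937772-118937931 on the plus strand, Hsf3 at chrX:96367920-96368079 on the minus strand and Hspa14 at chr2:3512815-3512974 on the minus strand. RefSeq starts need not be the ends of the gene as the GENCODE annotation gives it: the Hsf3 stretch lies far inside that gene, so its missing match does not describe the sequence before the gene's 5′ end, the Hspd1 stretch lies just inside its gene and that of Hspa5 overlaps it. The Hspd1 start used here and that of Hspe1, genes that encode Hsp60 and Hsp10, lie 216 bases apart on opposite strands, so they share this region. Hspd1 has a further RefSeq start, whose stretch at chr1:55088244-55088403 on the minus strand held no match. The Hspa1a and Hspa1b stretches matched in 159 of 160 bases, and these near-identical genes divide their reads with uncertainty.

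Members differed widely between classes. Across the 9 classes, with the mouse as a block, 60 members passed the filter on low counts, and each was compared in each class with the mean of the other classes. Of 540 member and class pairs, 339 (62.8%) passed an adjusted p of 0.05, beside 66.6% of the pairs of all genes. Those called were 169 higher and the rest lower, and 64 exceeded 1 on the log2 scale. The counts were 46 in CA1-like nuclei (22 higher, 24 lower; 75.8% of all genes tested were called there), 42 in DG-like (20, 22; 75.1%), 45 in CA3-like (19, 26; 75.8%), 33 in inhibitory (16, 17; 68.1%), 41 in astrocyte-like (27, 14; 70.4%), 37 in oligodendrocyte-like (26, 11; 69.4%), 27 in OPC-like (6, 21; 47.2%), 29 in microglia-like (10, 19; 57.0%) and 39 in endothelial-like nuclei (23, 16; 60.7%). As a group the members were therefore called about as often as other genes, and their classes are of interest gene by gene.

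Hsp90 genes and Hspa8 were relatively low in neurons. Hsp90aa1 and Hsp90ab1, the cytosolic Hsp90 genes, Hspa8 (Hsc70), Hsp90b1 (Grp94 of the ER) and Dnajc3 (the ER protein p58IPK) were among 8 members lower in all 4 neuronal classes, with Dnajb11, Hsf3 and Hspb1. Of all genes tested, 68.1% to 75.8% were called in a single neuronal class. How many of them were lower in all 4 was not counted, so the number of members is no result about them. In oligodendrocyte-like nuclei Hsp90aa1 was 193 to 435 CPM over mice (median 290), a log2 difference of 1.21 ± 0.06 (SE) from the other classes. Hspa8 was higher in endothelial-like (2.00 ± 0.10) and oligodendrocyte-like nuclei (0.61) and lower in CA3-like (-0.98) and CA1-like nuclei (-0.89). Hspa5, the ER Hsp70 called BiP, was higher in endothelial-like (1.30) and lower in CA3-like nuclei (-0.95). Other Hsp70 genes varied over the 4 neuronal classes: Hspa2 and Hspa5 were lower in 3 and Hspa13 in 2, Hspa12b was lower in 2 and higher in 1, the mitochondrial Hspa9 was lower in 0 and higher in 1, and Hspa14 was called in none. Hspa4 and Hspa4l were each higher in 3 and lower in 1, and Hsph1 was higher in 1 and lower in 1.

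Auxilin (Dnajc6), the atypical Hsp70 Hspa12a and the factors Hsf1 and Hsf2 went the other way. They belonged to 9 members higher in all 4 neuronal classes, with Dnajb4, Dnajc11, Dnajc18, Dnajc27 and Hsf5, a count that was not made over all genes either. Dnajc6, which encodes the clathrin-uncoating protein auxilin, was 287 to 508 CPM (median 410) in CA3-like nuclei and 14.8 to 78.3 (median 26.5) in astrocyte-like nuclei, with log2 differences of 2.19 ± 0.07 and -2.01. Its ranges in these 2 classes did not overlap. Hspa12a differed by 1.31 in CA1-like, 1.07 in CA3-like and 0.93 in DG-like nuclei. Dnajc21 was highest in CA1-like nuclei (52.1 to 128 CPM, 1.31 ± 0.06), but over the 4 neuronal classes it was higher in 2 and lower in 2.

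Dnajb2 and Hspa12b were each led by a single class, in which every mouse was above every mouse of the other classes. Dnajb2 in oligodendrocyte-like nuclei was 65.2 to 321 CPM (median 112), where the next class, astrocyte-like, had 13.3 to 45.1 (median 27.2), a log2 difference of 3.28 ± 0.08. Hspa12b in endothelial-like nuclei was 90.3 to 335 CPM (median 173), where inhibitory nuclei, next in order, had 2.57 to 19 (median 9.21), a difference of 6.43 ± 0.18. The small heat shock protein gene Hspb1 was 18.6 to 1675 CPM in endothelial-like nuclei of 10 mice (median 523), a difference of 7.91 ± 0.16, and 0 to 17.5 (median 2.68) in oligodendrocyte-like nuclei. Hspb8 differed by 3.61 ± 0.39 in endothelial-like and 2.84 ± 0.17 in astrocyte-like nuclei.

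Astrocyte-like nuclei held most of the Hsf3 RNA, 692 of its 769 UMIs in gated nuclei. Hsf3 encodes a heat shock factor known from birds and mice. It was 2.32 to 122 CPM there (median 19.1) and 0 to 1.03 (median 0.293) in DG-like nuclei, a log2 difference of 5.16 ± 0.17. Dnajc3 was 122 to 312 CPM (median 184) in astrocyte-like nuclei, 1.47 ± 0.05 above the other classes, Dnajb9 was 1.25 higher there and 1.64 higher in endothelial-like nuclei, and Hspa2 was 2.22 higher. Endothelial-like nuclei had the highest median in 15 of the members tested, oligodendrocyte-like in 12, astrocyte-like in 7, CA3-like in 6, CA1-like, DG-like and inhibitory in 5 each, microglia-like in 4 and OPC-like in 1. How often each class led among all genes was not counted, so these counts are no result about the members. The endothelial-like medians rest on 10 mice.

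**Figure D1:**
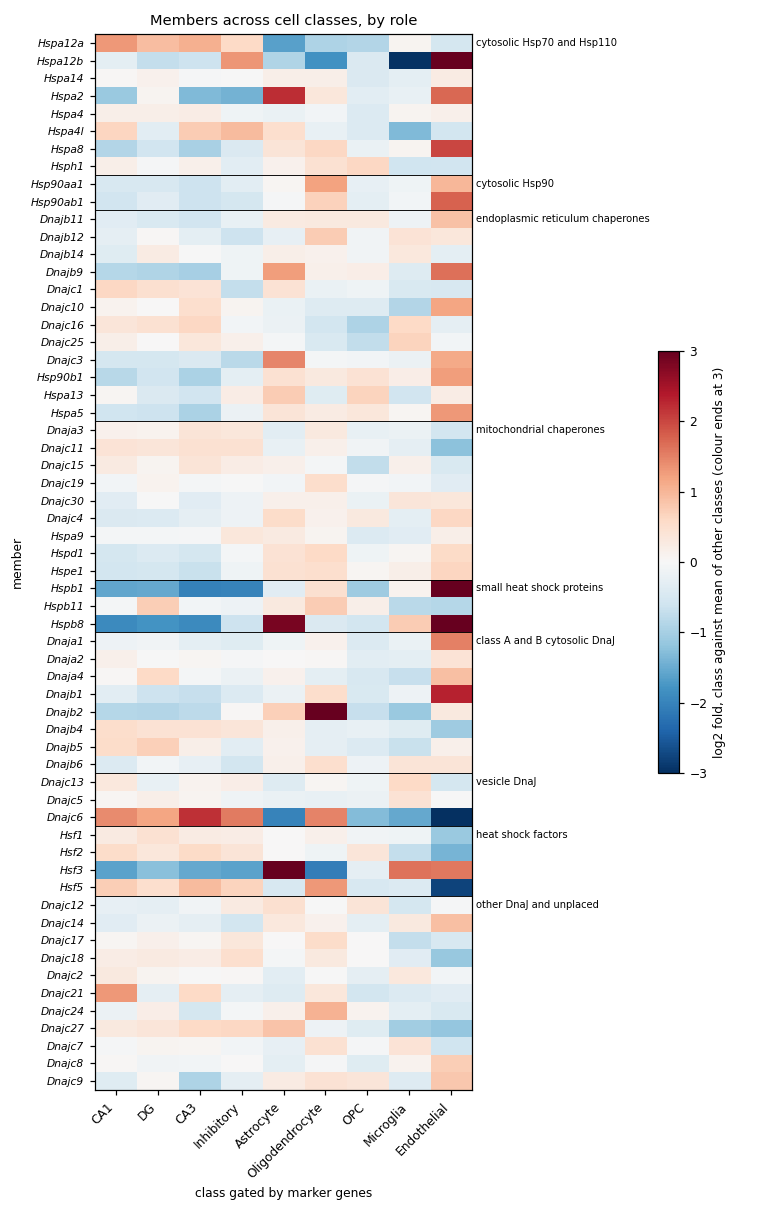
Heat map of the members tested across classes, ordered by role (rows), in the 9 marker-gated classes (columns). Colour is the log2 fold of a class against the mean of the other classes, with the scale ending at 3, and shows Hspb1 and Hspa12b in endothelial-like, Dnajb2 in oligodendrocyte-like, Hsf3 in astrocyte-like and Dnajc6 in neuronal classes.

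Isoflurane against awake was compared in 16 mice (9 Awake, 7 Iso), averaged over both genotypes, in a fit that holds all 20. Under isoflurane Hsf3 and Hspa14 rose in astrocyte-like nuclei (log2 changes of 2.84 and 0.95). Dnajb5 fell in CA1-like nuclei (-1.24) and Dnajc6 in all 4 neuronal classes (-0.38 to -0.33). Hsp90 genes and Hspa8, tested in all 8 classes, were called in none. Of the inducible Hsp70 genes, Hspa1a had enough counts for a test in DG-like nuclei alone and Hspa1b in no class. Summed over members in all nuclei, the level was 3064 to 3674 CPM in awake mice (median 3362) and 2906 to 3589 under isoflurane (median 3026), and the ranges overlapped. Over 8 classes, 16 of 416 tested member and class pairs (3.85%) passed, 7 higher and 9 lower, beside 5.84% of the pairs of all genes, and 65 had an unadjusted p under 0.05. The median log2 change of the members lay between -0.04 and 0.03 in each class and that of all genes between -0.01 and 0.01.

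By class, 6 of 59 tested members were called in CA1-like nuclei (2 higher, 4 lower), where 10.8% of all genes tested were called. In DG-like nuclei it was 3 of 62 (1 higher, 2 lower) beside 4.50%, in CA3-like 1 of 58 beside 4.46% and in inhibitory 1 of 54 beside 3.47%. Astrocyte-like nuclei had 3 of 57, all higher, beside 8.75%, and oligodendrocyte-like nuclei 2 of 56 beside 8.20%. In OPC-like nuclei 0 of 42 passed edgeR's test beside 0.679%, with 1 at an unadjusted p under 0.05, and in microglia-like nuclei 0 of 28 beside 0.256%, with 3. In the sum of all nuclei 5 of 74 passed (2 higher, 3 lower) beside 9.63%. These shares lie near or below the background, so the counts are no result about the members. With the runs of mouse numbers as a block all 16 pairs passed. Without mice 1 to 4, 5 of them passed: Hsf3, Hspa14 and Dnajc1 in astrocyte-like, Dnajc5b in CA1-like and Dnajc10 in oligodendrocyte-like nuclei. With mice thinned to equal depth 6 passed: the same 3 in astrocyte-like nuclei, Hspa14 in oligodendrocyte-like and Dnajc5b and Dnajc6 in DG-like nuclei, while Dnajc5b in CA1-like nuclei then had too few counts for a test. In all nuclei, fewer cells of a type and less RNA per cell cannot be told apart.

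Hspa8 and the Hsp90 genes passed the test under isoflurane neither in all nuclei nor in any of the 8 classes. In all nuclei Hspa8 was 35.9 to 278 CPM awake (median 83.4) and 38 to 337 under isoflurane (median 73.4), a log2 change of -0.35 ± 0.27 with edgeR's adjusted p = 0.46. Hsp90aa1 was 90.5 to 162 (median 128) and 91.1 to 184 (median 109), -0.13 ± 0.13 with adjusted p = 0.57. Hsp90ab1 was 119 to 311 (median 170) and 113 to 417 (median 156). The ranges overlapped for all of these, and the highest levels of both Hspa8 and Hsp90ab1 were in mice 3, 2 and 1, of which mouse 3 was under isoflurane.

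Among inducible Hsp70 genes, in all nuclei, Hspa1a was 0.307 to 3.83 CPM awake and 0.426 to 4.53 under isoflurane (edgeR's adjusted p = 0.68, and 0.81 in DG-like nuclei) and Hspa1b 0.0515 to 1.33 and 0.0909 to 0.739 (adjusted p = 0.75). Hsph1, the inducible Hsp110, was 17 to 40.7 awake (median 32.6) and 18.3 to 33.4 under isoflurane (median 23.7), -0.43 ± 0.17 with edgeR's adjusted p = 0.12. The small heat shock protein gene Hspb1 was 0.206 to 32.4 awake and 0.533 to 13.9 under isoflurane. Over classes the changes of Hspa8 ran from -0.38 to -0.11, those of Hsp90aa1 from -0.18 to 0.18, those of Hspa5 from -0.53 to 0.10 and those of Hsf1, the main heat shock factor, from -0.23 to 0.04. Their smallest adjusted p-values were 0.37, 0.63, 0.67 and 0.23.

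Dnajb1, the Hsp40 partner of inducible Hsp70, was 2.92 to 7.07 CPM awake (median 3.99) and 1.73 to 4.78 under isoflurane (median 2.58) in all nuclei, -0.75 ± 0.23 with edgeR's adjusted p = 0.045. Its ranges overlapped, the call was lost on leaving out any of 15 mice (adjusted p = 0.16 without mouse 10), and it was called in none of the 3 classes where it was tested (CA1-like, DG-like and oligodendrocyte-like). Of the remaining members given by name in the fixed rule, Hspa4 (85.7 to 164 awake, 79.8 to 121 under isoflurane), Hspa9 (55.6 to 86.4, 53.8 to 83.6), Hspd1 (24 to 36.9, 20.4 to 45.6), Hspe1 (8.61 to 27.7, 8.63 to 34.1), Hsp90b1 (75.5 to 168, 60.1 to 138) and Dnaja2 (57.4 to 167, 42.5 to 133) overlapped between states and were not called. Dnaja1 (52.6 to 94.1, 55.2 to 99.6), Dnajb6 (89.7 to 131, 99.1 to 132), Hspa4l (42.7 to 68.2, 41.9 to 57.8) and Hsf1 (21 to 40.7, 21.1 to 31.7) did so too.

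Hsf3 in astrocyte-like nuclei had the largest change among the called pairs. It was 12, 12, 7.86, 2.25, 5.53 and 3.52 CPM in the WT-Awake mice, 15.8, 2.79 and 6.56 in fAD-Awake, 32.9, 44.5 and 58.7 in WT-Iso and 119, 35.5, 34.6 and 44.8 in fAD-Iso. The 7 isoflurane mice were all above the 9 awake mice. The log2 change was 2.84 ± 0.31 (edgeR's quasi-likelihood test, adjusted p = 1.4e-05), resting on 82 UMIs awake and 538 under isoflurane. It was 2.74 ± 0.41 in WT and 2.94 ± 0.46 in fAD mice alone, with a difference between them of 0.20 ± 0.64 (adjusted p = 1). The change had the same direction in 4 of 4 runs of mouse numbers (2.16 to 3.11) and was called with each mouse left out. In all nuclei Hsf3 rose from 0.638 to 1.87 CPM awake to 2.46 to 10.6 under isoflurane, 1.97 ± 0.25 (adjusted p = 0.00039), again without overlap. The gene lies at chrX:96306178-96456294 on the minus strand (GRCm38) and shares 936 bases with Heph on the other strand.

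Hspa14, a ribosome-associated Hsp70, rose in both macroglial classes. In astrocyte-like nuclei it was 18.2 to 34.1 CPM awake (median 29.7) and 31.8 to 83.4 under isoflurane (median 48.3), a log2 change of 0.95 ± 0.15 (edgeR, adjusted p = 0.00048), and it was called with each mouse left out. In oligodendrocyte-like nuclei it was 15.5 to 35.6 (median 27.4) and 32.6 to 96 (median 40.2), 0.97 ± 0.20 (adjusted p = 0.0036), and 0.64 (adjusted p = 0.16) without mice 1 to 4. Ranges overlapped slightly in both classes, and the highest value in oligodendrocyte-like nuclei, 96 CPM, was that of mouse 4. In CA1-like, DG-like and OPC-like nuclei its changes were 0.20, 0.12 and 0.10 and did not pass. The gene, at chr2:3488850-3512814 on the minus strand, shares 8264 bases with Gm45902 on the same strand, where reads cannot be assigned to either.

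Of the vesicle DnaJ genes, Dnajc5b was called higher and Dnajc6 lower under isoflurane, while Dnajc5 and Dnajc13 were called in no class. Dnajc5b, which encodes the β form of cysteine string protein, was rare: in CA1-like nuclei it was 0.355 to 3.21 CPM awake (median 1.16, 27 UMIs in all) and 2.98 to 9.19 under isoflurane (median 5.24, 124 UMIs), a log2 change of 2.30 ± 0.33 (edgeR, adjusted p = 0.00024). A single awake mouse, 12, reached into the isoflurane range. Dnajc5b passed the filter on low counts in this class through the isoflurane mice, so the call is not independent of the rise. It was called with no filter as well. In DG-like nuclei it was 0.681 to 6.04 (median 2.23) and 4.18 to 14.9 (median 4.73), 1.32 ± 0.33 (adjusted p = 0.03), a call lost on leaving out mouse 2, 3, 10, 16, 18 or 20 (adjusted p up to 0.08). In CA3-like nuclei its change of 1.83 did not pass. In all nuclei the change was 1.31 ± 0.23 (adjusted p = 0.0024).

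Auxilin RNA fell in every neuronal class. It was called in no glial class, though its change in astrocyte-like nuclei lay between -0.22 and -0.20. In all nuclei it fell too, by -0.31 ± 0.08 (edgeR, adjusted p = 0.019, and 0.21 without mice 1 to 4). Dnajc6 was 269 to 352 CPM awake (median 291) and 203 to 269 under isoflurane (median 225) in inhibitory nuclei, where the states touched without overlapping, a log2 change of -0.38 ± 0.09 (edgeR, adjusted p = 0.015). In DG-like nuclei it was 205 to 248 (median 227) and 146 to 209 (median 179), -0.38 ± 0.08 (adjusted p = 0.0087). CA1-like nuclei had 182 to 262 (median 245) and 173 to 208 (median 191), -0.33 ± 0.08 (adjusted p = 0.011), and CA3-like nuclei 335 to 422 (median 381) and 247 to 369 (median 313), -0.33 ± 0.08 (adjusted p = 0.023). The CA1-like call held with each mouse left out, while the DG-like and inhibitory calls were lost without mouse 2 (adjusted p = 0.056 and 0.055) and the CA3-like call without mouse 1, 2, 3, 4 or 10 (adjusted p up to 0.1). None of the 4 passed without mice 1 to 4 (-0.38 to -0.26). With mice thinned to equal depth the DG-like call held (adjusted p = 0.022), while those in CA1-like (0.058), CA3-like (0.055) and inhibitory nuclei (0.51) did not. Dnajc5, the cysteine string protein of synaptic vesicles, was 63.7 to 81 CPM awake and 60.7 to 73 under isoflurane in all nuclei and did not pass (adjusted p = 0.23).

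In CA1-like nuclei Dnajb5, a cytosolic DnaJ protein, was 6.75 to 19 CPM awake (median 12.8) and 3.04 to 7.41 under isoflurane (median 5.53), a log2 change of -1.24 ± 0.24 (edgeR, adjusted p = 0.0026) from 300 and 112 UMIs. It was called with each mouse left out, but not without mice 1 to 4 (-1.14, edgeR's adjusted p = 0.071) or with mice thinned to equal depth (adjusted p = 0.054). Hspa12a fell there as well, from 78.9 to 110 (median 89.8) to 57.5 to 84.4 (median 68.9), -0.37 ± 0.09 (adjusted p = 0.015, 0.051 without mouse 16, and -0.33 with adjusted p = 0.14 without mice 1 to 4). Dnajc4, linked to mitochondria, rose from 3.69 to 9.95 (median 6.04) to 4.02 to 17.4 (median 10.8), 0.68 ± 0.18 (adjusted p = 0.022, lost without any of 6 mice). Hsf2 fell in DG-like nuclei from 30.4 to 44.5 (median 37) to 22.1 to 31.2 (median 26.1), -0.48 ± 0.11 (adjusted p = 0.021, 0.094 without mouse 2, 0.073 without mouse 3, 0.15 with mice thinned to equal depth, and -0.42 with adjusted p = 0.27 without mice 1 to 4). Only the ranges of Dnajc4 overlapped broadly.

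Among ER chaperones, Dnajc1, a DnaJ protein of the ER membrane, was called higher in astrocyte-like and lower in CA1-like nuclei, and was called in no other class. In astrocyte-like nuclei it rose from 277 to 408 CPM awake (median 344) to 349 to 537 under isoflurane (median 463), 0.41 ± 0.11 (edgeR, adjusted p = 0.019, lost without mouse 4, 10, 16, 17 or 18). In CA1-like nuclei it was 347 to 471 (median 427) and 200 to 411 (median 392), -0.27 ± 0.09 (adjusted p = 0.045), a call lost without any of 13 mice and with -0.12 (adjusted p = 0.48) without mice 1 to 4. Dnajc10, the ER reductase ERdj5, fell in oligodendrocyte-like nuclei from 27.4 to 59.1 (median 41.1) to 14.2 to 37.5 (median 29), -0.70 ± 0.19 (adjusted p = 0.024, lost without mouse 4, 10, 15, 16 or 18). Dnajc25, named here after its values were seen, fell in all nuclei by 0.43 on the log2 scale (19.5 to 26 CPM awake, 13.9 to 19.9 under isoflurane, adjusted p = 0.012, 0.056 without mouse 2).

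**Figure D2:**
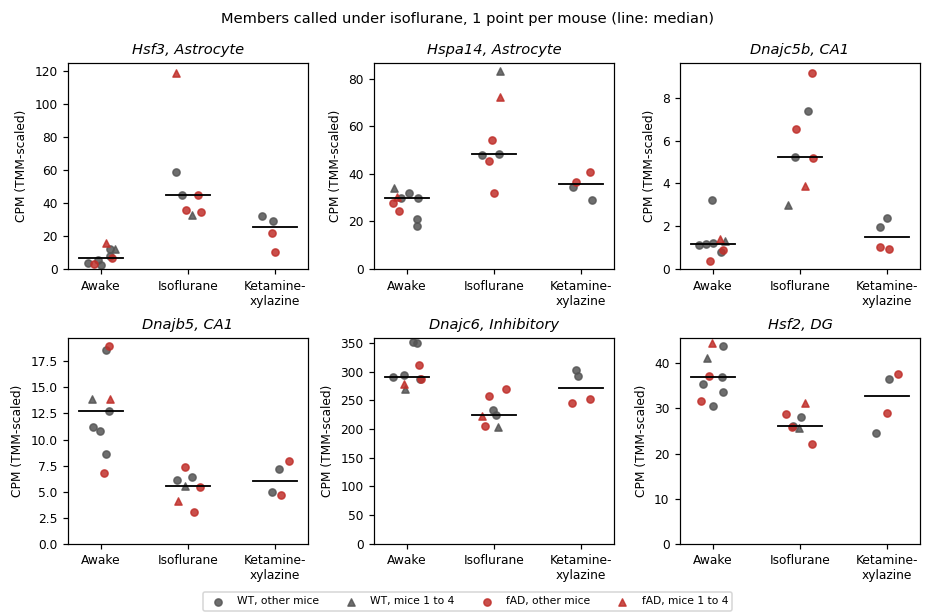
CPM of members called between isoflurane and awake, 1 panel per member and class, with 1 point per mouse and the state on the horizontal axis (9 Awake, 7 Isoflurane, 4 Ketamine-xylazine). The isoflurane mice lie above all awake mice for Hsf3 in astrocyte-like nuclei (32.9 to 119 against 2.25 to 15.8 CPM), and the states touch at 269 CPM without overlapping for Dnajc6 in inhibitory nuclei, while they overlap in part for Hspa14, Dnajc5b, Dnajb5 and Hsf2.

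Pairs were counted by role over the 8 classes, where 5.84% of the pairs of all genes were called in either direction. Vesicle DnaJ genes had 2 pairs higher (all of Dnajc5b) and 4 lower (all of Dnajc6) of 27 tested. The classes of a mouse share its library, so pairs of 1 gene are not separate results. Cytosolic Hsp70 and Hsp110 genes had 2 and 1 of 57, ER chaperones 1 and 2 of 88, and heat shock factors 1 and 1 of 25. Mitochondrial chaperones had 1 and 0 of 67, and class A and B cytosolic DnaJ genes 0 and 1 of 50. Cytosolic Hsp90 (16 pairs) and small heat shock proteins (9 pairs) had 0 called. Of 12 members called in a class or in all nuclei, 11 had a promoter in the table and 1, Dnajc10, held a heat shock element pair, beside 17 of the 61 members with a promoter.

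Of the lists of partner genes, that of HSF1 targets and Hsp90 co-chaperones had 2 pairs higher and 10 lower of 117, again beside 5.84%. P4ha1, the catalytic subunit of collagen prolyl 4-hydroxylase, made up 5 of the falls. It was 110 to 208 CPM awake (median 176) and 42.7 to 90.1 under isoflurane (median 66.2) in CA1-like nuclei, -1.27 ± 0.16 (edgeR, adjusted p = 8.1e-05), and 75.9 to 218 (median 140) and 40.3 to 68.6 (median 48.2) in oligodendrocyte-like nuclei, -1.56 ± 0.22 (adjusted p = 0.00016). The states did not overlap in either. P4ha1 is known as a target of the hypoxia-inducible factor too.

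The Hsp90 co-chaperones Stip1 (Hop) and Ptges3 (p23) fell in part of the classes, Stip1 by 0.49 and 0.53 on the log2 scale in CA1-like and CA3-like nuclei and Ptges3 by 0.37, 0.58 and 0.55 in CA3-like, inhibitory and oligodendrocyte-like nuclei (adjusted p = 0.016 to 0.048). None of these 5 calls passed without mice 1 to 4 or with mice thinned to equal depth, and that of Ptges3 in CA3-like nuclei passed in 3 of 20 fits that left out a mouse. Fkbp5, an Hsp90 co-chaperone that glucocorticoids induce, made up both rises: in astrocyte-like nuclei it was 15 to 51 CPM awake (median 36) and 35.1 to 412 under isoflurane (median 285), 2.70 ± 0.43 (adjusted p = 0.00052), and in oligodendrocyte-like nuclei its change was 1.35 ± 0.39 (adjusted p = 0.036, lost without any of 12 mice). In the unfolded protein response list 1 pair rose and 2 fell of 123: Herpud1 rose in astrocyte-like nuclei (0.67, adjusted p = 0.044, passed in 5 of 20 fits that left out a mouse and 0.12 without mice 1 to 4), and Ern1, which encodes the sensor IRE1, fell in CA1-like (-0.42, adjusted p = 0.03 and 0.2 without mice 1 to 4) and oligodendrocyte-like nuclei (-0.75, adjusted p = 0.0064). Hyou1 fell in astrocyte-like nuclei (-0.60, adjusted p = 0.048), the 1 call of 70 pairs among Hsp70 exchange factors, which passed in 2 of 20 fits that left out a mouse. The chaperonin CCT (61 pairs), prefoldin (57) and the cold-inducible RNA-binding genes Cirbp and Rbm3 (16) had 0 called, as had the 97 pairs of mitochondrial genome transcripts.

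Under ketamine-xylazine, DnaJ genes (Dnajc6, Dnajc5, Dnajb4, Dnajc1) fell in DG-like nuclei by 0.50 to 0.73 on the log2 scale and Hsf3 rose in astrocyte-like nuclei. Hspa8 was called lower in the 3 excitatory classes, but awake mouse 29 was as low. The comparison with awake rests on 4 mice, all in the run that holds mouse 29. Mouse 29 lay within the range of the ketamine mice in 7 of the 22 calls in classes and in 7 of the 14 in all nuclei. With the runs as a block, where the 4 are compared within that run only with mouse 29, 0 members passed. The change of Dnajc6 in DG-like nuclei was -0.49 with this block (main -0.52), while that of Hspa8 there became 0.11. Of the 22 calls in classes, 1 changed direction with it. Treatment and run cannot be told apart in full. Mitochondrial genome transcripts were lower in 34 of 97 pairs with 0 higher (class medians -1.94 to -1.19). With the mitochondrial share as a covariate in place of the term for mice 1 to 4, 11 member pairs were called, of which 9 were among the 22.

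Of 416 pairs, 22 (5.29%) were called, 6 higher and 16 lower, beside 8.10% of the pairs of all genes, and 91 had an unadjusted p under 0.05. DG-like nuclei had 7 of 62 (1 higher, 6 lower) beside 13.6% of all genes tested, CA3-like 7 of 58 (1 higher, 6 lower) beside 12.5%, CA1-like 5 of 59 (1 higher, 4 lower) beside 11.3% and astrocyte-like 3 of 57, all higher, beside 7.84%. By edgeR 0 were called in inhibitory (2.62% of all genes, 10 members at an unadjusted p under 0.05), oligodendrocyte-like (5.27%, 10), OPC-like (1.06%, 4) and microglia-like nuclei (0.888%, 1). In all nuclei 14 of 74 were called, 7 higher and 7 lower, beside 16.8%. Class medians of the members were -0.14 to 0.05 and those of all genes -0.04 to -0.02.

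Of the DnaJ genes called lower in DG-like nuclei, Dnajc6 had the smallest adjusted p. Dnajc6 in DG-like nuclei was 150, 154, 163 and 187 CPM in mice 25 to 28 and 227 in mouse 29, where awake mice had 205 to 248 (median 227), a log2 change of -0.52 ± 0.10 (edgeR, adjusted p = 0.0029), called with each mouse left out. Dnajc5 there was 56.2, 63.1, 60.8 and 45.7 against 69.5 to 92.8 awake (median 79), -0.50 ± 0.11 (adjusted p = 0.008). Mouse 29 was the lowest awake mouse for Dnajc5 at 69.5, and the call was lost without mouse 25. In all nuclei Dnajc5 fell by 0.37 on the log2 scale (adjusted p = 0.0072) with 52.7 to 60.9 CPM under ketamine, below every awake mouse.

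Dnajb4, a class B cytosolic DnaJ gene, was 31.6, 40.3, 34.7 and 35.1 CPM in DG-like nuclei of mice 25 to 28 and 46.3 to 75.6 awake (median 59.4), -0.73 ± 0.15 (edgeR, adjusted p = 0.0057, 0.052 without mouse 27). In CA3-like nuclei it was 31.1, 36.4, 33.2 and 26 against 33.4 to 69.7, -0.80 ± 0.20 (adjusted p = 0.014, lost without mouse 25 or 28), and in CA1-like nuclei it changed by -0.57 ± 0.18 (adjusted p = 0.047), with 48.3 in mouse 29. Mouse 29 was the lowest awake mouse in DG-like (46.3) and CA3-like nuclei (33.4), in the latter within the ketamine range. Dnaja1, another cytosolic DnaJ gene, was 64, 56.4, 60.8 and 56.3 in DG-like nuclei and 64.8 to 87.5 awake (64.8 in mouse 29), -0.32 ± 0.09 (adjusted p = 0.031, lost without any ketamine mouse or mouse 17).

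Dnajc1 was 275, 308, 300 and 307 CPM in DG-like nuclei and 375 to 470 awake (387 in mouse 29), -0.58 ± 0.13 (edgeR, adjusted p = 0.0079, 0.062 without mouse 27). In CA3-like nuclei it was 216, 292, 272 and 306 against 329 to 414 (394 in mouse 29), -0.59 ± 0.11 (adjusted p = 0.0032), called with each mouse left out. Neither class showed an overlap. Hspb11, named with the small heat shock proteins and known as the intraflagellar transport protein IFT25, was 6.71, 8.88, 13.1 and 10.2 in CA3-like nuclei and 14.2 to 23 awake, where mouse 29 was lowest, -0.93 ± 0.19 (adjusted p = 0.0047), also called with each mouse left out.

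Hspa8 was low in the ketamine mice and in mouse 29 alike. It was 38.9, 25.5, 20.8 and 40.8 CPM in DG-like nuclei of mice 25 to 28 and 25.7 in awake mouse 29, the lowest of the awake mice, which had 25.7 to 230 (median 69.8). The log2 change of -1.30 ± 0.37 (edgeR, adjusted p = 0.026) became 0.11 with the runs as a block and -0.68 (adjusted p = 0.2) with the mitochondrial share as a covariate, under which the calls in CA1-like and CA3-like nuclei were lost too (adjusted p = 0.38 and 0.36). CA1-like nuclei had 31.9, 27.8, 18 and 24.6 against 23.9 to 198 awake (23.9 in mouse 29), -1.22 ± 0.35 (adjusted p = 0.031), and CA3-like nuclei 25.6, 30.4, 19 and 30.6 against 24.9 to 166 (24.9 in mouse 29), -1.11 ± 0.35 (adjusted p = 0.042). All 3 calls were lost without mouse 10, 25, 26 or 27, that of CA1-like nuclei also without mouse 28 and that of CA3-like nuclei also without mouse 13, 14 or 28. In all nuclei Hspa8 did not pass (-0.85 ± 0.34, adjusted p = 0.091), but it did once fibroblast-like nuclei were left out (-1.04 ± 0.33, adjusted p = 0.043).

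Rises were fewer. Dnajc13, an endosomal DnaJ protein, was 107, 98.6, 110 and 80.4 CPM in CA3-like nuclei and 51.2 to 92.3 awake (74.7 in mouse 29), 0.53 ± 0.12 (edgeR, adjusted p = 0.0076, 0.11 without mouse 27). Hspa9, the mitochondrial Hsp70 called mortalin, was 108, 85.8, 79.3 and 65.3 in DG-like nuclei and 45.4 to 75.2 awake (60.1 in mouse 29), 0.48 ± 0.14 (adjusted p = 0.031, lost without mouse 10, 25 or 27). Hsf3 in astrocyte-like nuclei was 21.9, 10.5, 28.9 and 31.8, with 3.52 in mouse 29 and 2.25 to 15.8 over awake mice, 1.93 ± 0.41 (adjusted p = 0.0088, 0.081 without mouse 25), so that 3 of the 4 ketamine mice were above every awake mouse. Hspd1 (Hsp60) fell in CA3-like nuclei, 15.2, 20.6, 9.5 and 10.2 against 15.7 to 28.9 awake, where mouse 29 was lowest at 15.7, -0.76 ± 0.24 (adjusted p = 0.046, lost without any of 13 mice). The other called pairs had edgeR's adjusted p-values of 0.032 to 0.047. Falls were those of Dnajb14 in CA1-like and CA3-like nuclei and of Dnajb5 in CA1-like nuclei. The rises were of Hspa14 in CA1-like and of Dnajb2 and Dnajc3 in astrocyte-like nuclei. Dnajc3 passed in 15 of 20 fits that left out a mouse and the others in 3 to 7. Mouse 29 lay within the ketamine range for Dnajb14 in each of its classes. For Dnajb2, 0 ketamine mice were above every awake mouse.

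**Figure D3:**
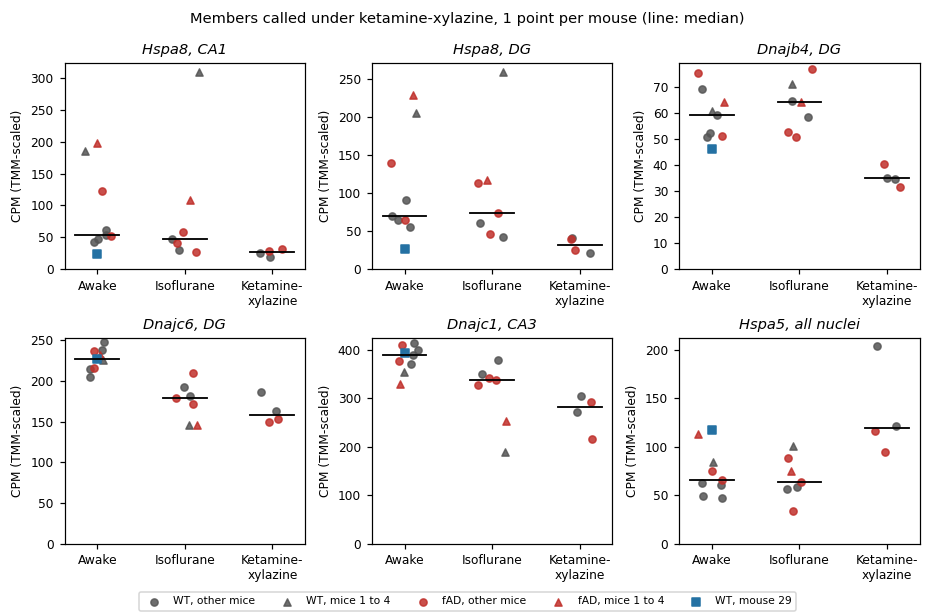
CPM of members called between ketamine-xylazine and awake, 1 panel per member and class, with 1 point per mouse and awake mouse 29 marked. Mouse 29 sits with the other awake mice for Dnajc6 in DG-like and Dnajc1 in CA3-like nuclei and with the ketamine mice for Hspa8 (23.9 CPM in CA1-like nuclei, where they had 18 to 31.9) and for Hspa5 in all nuclei.

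In all nuclei Hspa5, Hspa1b and Hspe1 were called higher, and none of the 3 passed once fibroblast-like nuclei were left out. Those nuclei were 13.5%, 3.14%, 3.84% and 10.4% of all nuclei in mice 25 to 28. Hspa5 (BiP) was 94.9, 116, 121 and 204 CPM in mice 25 to 28, 117 in mouse 29 and 46.9 to 117 over awake mice (median 66), 0.91 ± 0.25 (edgeR, adjusted p = 0.02), and was called in no single class. Fibroblast-like nuclei gave 374 of 1676 Hspa5 UMIs in mouse 25, 480 of 1980 in mouse 26, 177 of 1058 in mouse 27, 1040 of 2207 in mouse 28 and 361 of 1519 in mouse 29. Without these nuclei the change was 0.48 (adjusted p = 0.097), and with the runs as a block 0.02.

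Hspa1b, the inducible Hsp70, was 10, 0.294, 0.8 and 1.48 CPM in the ketamine mice and 0.0515 to 1.33 awake, 2.42 ± 0.74 (edgeR, adjusted p = 0.034). The value rests on mouse 25, where 116 of 177 UMIs were in fibroblast-like nuclei: without that mouse the adjusted p was 0.81, and without the nuclei the change was 1.15 (adjusted p = 0.32). Hspe1 (Hsp10) was 29.3, 22.5, 21.9 and 23.2, with 21.3 in mouse 29 and 8.61 to 27.7 over awake mice, 0.82 ± 0.25 (adjusted p = 0.035) and 0.58 (adjusted p = 0.11) without fibroblast-like nuclei.

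**Figure D4:**
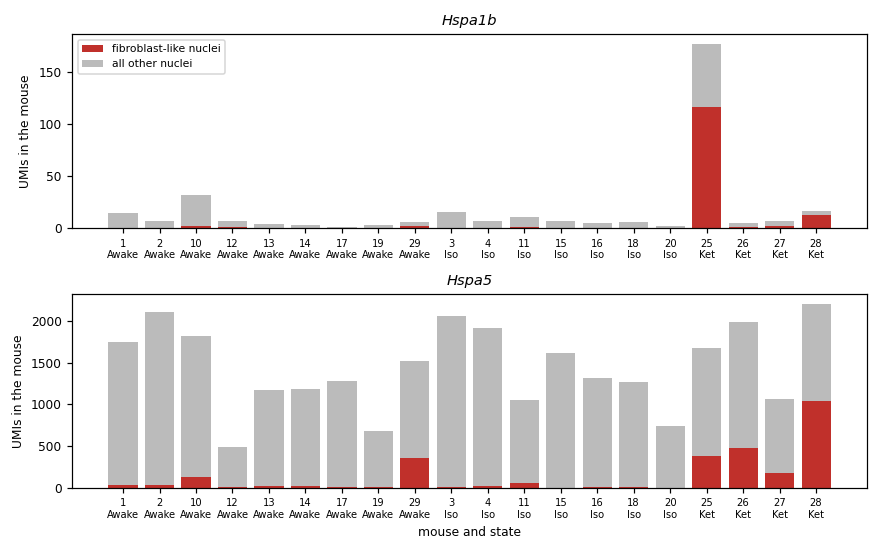
UMIs of Hspa5 and Hspa1b per mouse (vertical axis; mice in order with their state on the horizontal axis), split into fibroblast-like and other nuclei. In mouse 28 fibroblast-like nuclei gave 1040 of 2207 Hspa5 UMIs, and in mouse 25 they gave 116 of 177 Hspa1b UMIs.

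Further calls in all nuclei were rises of Dnajc10 (0.37), Dnajc13 (0.26) and Hsf3 (1.17 ± 0.31, edgeR's adjusted p = 0.017). Without fibroblast-like nuclei Hsf3 still passed (1.24, adjusted p = 0.014). Dnajc10 (0.28, adjusted p = 0.068) and Dnajc13 (0.24, adjusted p = 0.066) then did not. The Dnajc13 call passed in 6 of 20 fits that left out a mouse. Falls in all nuclei, which passed without those nuclei too, were those of Dnajc1 (-0.45 ± 0.10, adjusted p = 0.0074), Dnajc6 (-0.37), Dnajb4 (-0.58), Dnajb14 (-0.37), Dnajc28 (-0.98) and Dnajc30 (-0.52). For Dnajb4, Dnajb14, Dnajc28 and Dnajc30 mouse 29 lay within the ketamine range (40.5, 38.3, 1.07 and 6.53 CPM). None of them passed without mice 1 to 4 (edgeR's adjusted p = 0.077 to 0.086) or with the mitochondrial share as a covariate (0.053 to 0.199). In all nuclei Dnajc6 did not pass without mice 1 to 4 either (adjusted p = 0.066), while Dnajc1 passed in both fits. Hsp90aa1 (120 to 154 CPM under ketamine, median 129), Hsp90ab1 (141 to 184), Hsp90b1 (105 to 247), Hspa4 (88.7 to 139), Hspa4l (56 to 64.1), Hsph1 (17.7 to 28.3), Hspa1a (0.294 to 1.13), Hspb1 (2.18 to 7.1), Dnaja2 (109 to 128), Dnajb1 (3.06 to 7.36), Dnajb6 (87.7 to 103), Hsf1 (24.1 to 27.4) and Hsf2 (29.3 to 35.9) were not called there.

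By role, beside 8.10% of the pairs of all genes in either direction, class A and B cytosolic DnaJ genes had 1 pair higher and 5 lower of 50, ER chaperones 1 and 4 of 88, cytosolic Hsp70 and Hsp110 genes 1 and 3 of 57, vesicle DnaJ genes 1 and 2 of 27, mitochondrial chaperones 1 and 1 of 67, heat shock factors 1 and 0 of 25, small heat shock proteins 0 and 1 (Hspb11) of 9 and cytosolic Hsp90 genes 0 of 16. Of 23 members called in a class or in all nuclei, 18 had a promoter in the table, and Dnaja1, Dnajb4, Dnajc10, Hspa1b, Hspd1 and Hspe1 held a heat shock element pair (6 of 18, beside 17 of the 61 members with a promoter, so the count is no result about the called members).

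In the other lists, HSF1 targets and Hsp90 co-chaperones had 1 pair higher and 13 lower of 117 (8.10% over all genes), of which P4ha1 gave 5 falls (-1.38 in CA1-like, -1.43 in CA3-like, -1.19 in DG-like, -1.43 in inhibitory and -1.26 in oligodendrocyte-like nuclei). It was 54.4 to 74.7 CPM under ketamine in CA1-like nuclei, where mouse 29 had 110 and was the lowest awake mouse. Rbm3, an RNA-binding protein that cold induces, was lower in 7 classes (-2.28 to -1.36), but with the runs as a block its change turned to 0.14 in DG-like and 0.12 in CA3-like nuclei. In inhibitory nuclei it was 0 to 25 CPM under ketamine (median 13.5) and 25.7 to 68.4 awake (median 58.1), where mouse 29 was lowest at 25.7. Unfolded protein response genes had 5 higher and 5 lower of 123, among them Atf6, an ER stress sensor, higher in CA1-like (0.64; 142 to 227 CPM against 92.8 to 135, 131 in mouse 29), CA3-like (0.35) and inhibitory nuclei (0.82), Manf higher in CA3-like (0.64) and DG-like (0.51) and Canx lower in CA1-like (-0.52) and CA3-like nuclei (-0.58). The other falls were in DG-like nuclei, of the response's transcription factors Atf4 (-1.10, adjusted p = 0.0092) and Xbp1 (-1.03, adjusted p = 0.013) and of Pdia4 (-1.05, adjusted p = 0.013), an ER disulfide isomerase, where mouse 29 lay within the ketamine range for Atf4 (7.24 CPM) and above it for Xbp1 (12.7) and Pdia4 (11.6). Hsp70 exchange factors had 0 higher and 2 lower of 70, CCT 0 and 3 of 61 and prefoldin 0 and 1 of 57. With the runs as a block none of these passed.

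**Figure D5:**
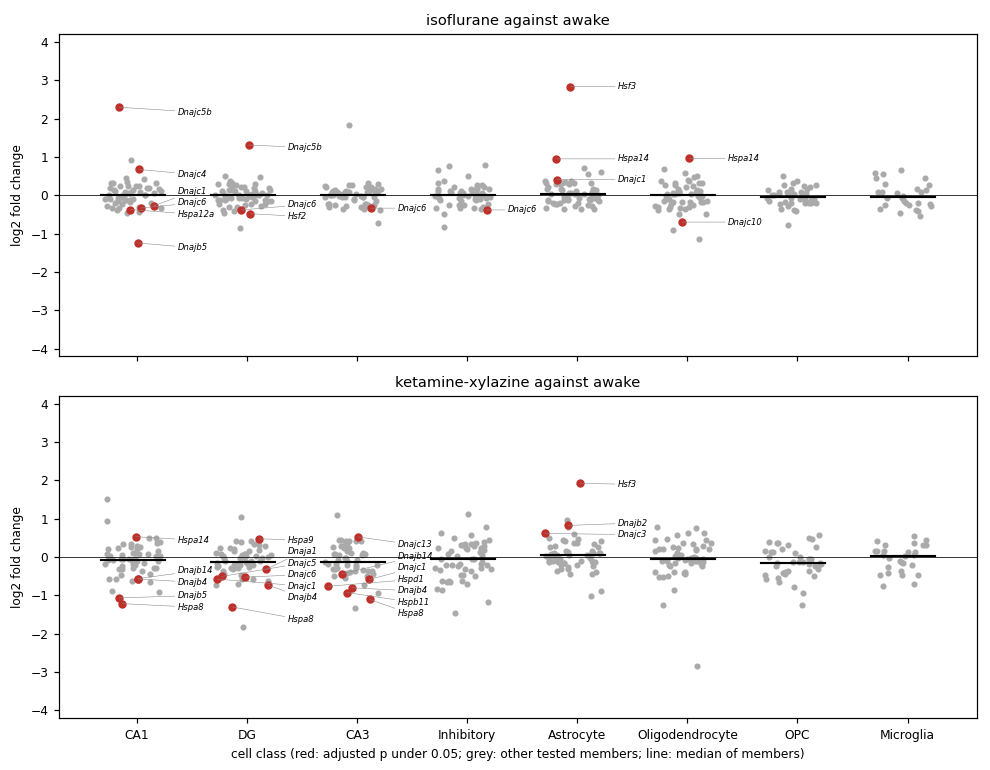
Log2 fold changes of every tested member in 8 classes (horizontal axis), isoflurane against awake in the upper panel and ketamine-xylazine against awake in the lower panel. Red points passed an adjusted p of 0.05 (16 and 22), grey points are the other tested members and lines are the medians of the members, which lie between -0.14 and 0.05.

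Ketamine-xylazine against isoflurane shares its mice with both comparisons above. Here 14 of 416 pairs (3.37%) passed, 3 higher and 11 lower under ketamine, beside 4.72% of the pairs of all genes, and 78 had an unadjusted p under 0.05. The calls were 4 of 59 in CA1-like nuclei (8.19% of all genes tested), 3 of 62 in DG-like (4.96%), 4 of 58 in CA3-like (7.22%), 1 of 57 in astrocyte-like (6.91%) and 2 of 56 in oligodendrocyte-like nuclei (3.62%). By edgeR 0 passed in inhibitory (0.468%; 7 members at an unadjusted p under 0.05), OPC-like (0.151%; 5) and microglia-like nuclei (0.888%; 3), and 11 of 74 passed in all nuclei (10.8%), 7 higher and 4 lower. With the runs as a block 0 passed.

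Dnajb4 and Hspb11 were lower under ketamine in all 3 excitatory classes. In CA3-like nuclei Dnajb4 was 47 to 80.5 CPM under isoflurane (median 63.4) and 26 to 36.4 under ketamine, a log2 difference of -1.01 ± 0.20 (edgeR, adjusted p = 0.0056) that was called with each mouse left out, and it was -0.81 ± 0.19 in CA1-like and -0.80 ± 0.16 in DG-like nuclei. The anesthetics did not overlap in any of the 3. Hspb11 was 17.9 to 23 under isoflurane and 6.71 to 13.1 under ketamine in CA3-like nuclei, -1.01 ± 0.19 (adjusted p = 0.0042), -0.98 in CA1-like and -0.63 in DG-like nuclei. The CA3-like call held with each mouse left out, and those of CA1-like and DG-like nuclei passed in 13 and 15 of 20 fits that left out a mouse. Neither of these passed without mice 1 to 4 (edgeR's adjusted p = 0.081 and 0.073) or with mice thinned to equal depth (0.051 and 0.06). With the mitochondrial share as a covariate they did not pass either (0.061 and 0.079). Awake mouse 29 lay within the ketamine range for Hspb11 in CA1-like (15.5 CPM) and DG-like nuclei (28.2).

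Dnajc5b was lower under ketamine in CA1-like nuclei, -2.04 ± 0.47 (2.98 to 9.19 CPM under isoflurane, 0.938, 1.03, 2.4 and 1.97 in mice 25 to 28, edgeR's adjusted p = 0.013). There it passed the filter on low counts through the isoflurane mice. In DG-like nuclei the difference was -1.80 ± 0.50 (adjusted p = 0.047, lost without any of 15 mice), and in CA3-like nuclei -2.10, which did not pass. Dnajc5 differed by -0.44 ± 0.12 in CA3-like nuclei (adjusted p = 0.025). Hspa4l, an Hsp110 exchange factor, was higher: 45.5 to 61.2 under isoflurane and 69.4, 69.5, 67.2 and 64 under ketamine in CA1-like nuclei, 0.41 ± 0.12 (adjusted p = 0.048, lost without any of 16 mice), and 0.50 ± 0.13 in CA3-like nuclei. Hspa2 was lower in astrocyte-like nuclei, 27.1 to 97.9 against 19.8, 21, 23.1 and 10.6, -1.30 ± 0.38 (adjusted p = 0.043), with 15.3 in mouse 29, and in oligodendrocyte-like nuclei it was 9.78 to 35.7 against 7.53, 8.16, 0 and 0, with 1.24 in mouse 29. Dnajc10 in oligodendrocyte-like nuclei was 14.2 to 37.5 against 38.6, 52.5, 53.7 and 46.7, 0.84 ± 0.23 (edgeR's adjusted p = 0.046, and 0.19 with mice thinned to equal depth). The Dnajc10 call passed in 8 of 20 fits that left out a mouse, and those of Hspa2 in 10 (astrocyte-like) and 14 (oligodendrocyte-like). By role, beside 4.72% of the pairs of all genes in either direction, 3 of 27 vesicle DnaJ pairs were lower, of 9 small heat shock protein pairs 3 (all of Hspb11), of 50 cytosolic DnaJ pairs 3 (all of Dnajb4) and of 57 cytosolic Hsp70 and Hsp110 pairs 2 higher and 2 lower, with 1 of 88 ER chaperone pairs higher.

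Genotype and its interplay with isoflurane gave no member call. For fAD against WT, averaged over states, 0 of 416 pairs passed edgeR's test and 0 by DESeq2, with 15 at an unadjusted p under 0.05, and 0% of all genes tested were called in any class. For the difference of the isoflurane change between fAD and WT it was 0 of 416 (0 by DESeq2, 10 at an unadjusted p under 0.05), again with 0% of all genes. All lists of partner genes had 0 called in both. Within awake mice and within isoflurane mice, fAD against WT gave 0 calls among the 14106 genes tested in CA1-like nuclei. The paper names Dnaja2 among genes that differ between genotypes in CA1 neurons under anesthesia. Its test, MAST, was run over single nuclei and with other group sizes, so the sums per mouse are no like-for-like check of it. Medians of the members over classes were -0.01 to 0.04 for genotype and -0.11 to 0.04 for the interaction. Of members called under isoflurane, the change of Dnajc5b in CA1-like nuclei was 1.95 in WT and 2.65 in fAD (edgeR's adjusted p = 0.025 and 0.011) and that of Hspa14 in astrocyte-like nuclei 1.01 and 0.89, with an interaction of -0.12 ± 0.30. That of Dnajb5 in CA1-like nuclei was -1.04 in WT and -1.44 in fAD (edgeR's adjusted p = 0.11 and 0.032), with an interaction of -0.39 ± 0.48. With 2 to 6 mice in a group and labels that Prnp does not bear out in every mouse, this does not show that the genotypes act alike.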

How the data were processed

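Hippocampal nuclei of 20 mice were profiled by droplet single nuclei RNA-sequencing, 1 library per mouse. The authors deposited raw UMI counts per gene and nucleus. Per the labels and methods they were made with Cell Ranger 5.0.0 on the mm10 transcriptome with introns included. The methods also name CellBender, which the file headers do not, so it is not known whether background RNA had been removed. Introns and nuclear RNA weight these counts towards unspliced transcripts, and stranded 3′ reads of genes that overlap on 1 strand are not assigned to either.

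Groups were taken from the labels, which differ in number from those of the paper. The members, lists and tests were chosen with earlier results of these data known, so no pattern here is independent evidence for an earlier one. Nuclei were gated on 69 markers in 12 profiles (posterior of at least 0.95, at least 2 own-marker UMIs). A gated nucleus counted as doubly gated where its marker UMIs of another class exceeded those expected of its own class (Poisson tail p under 0.001). Excitatory classes were not set against each other. The 7089 such nuclei (4.41%) were left out as possible doublets, 44214 nuclei stayed ungated, and 0 had fewer than 200 genes. Counts were summed per mouse and class with at least 20 nuclei (microglia-like in 19 mice, endothelial-like in 10 and then compared between classes only).

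Sums were tested with edgeR 4.0.16 (R 4.3.3, limma 3.58.1): TMM, filterByExpr, quasi-likelihood test, 6 groups plus a term for mice 1 to 4, Benjamini-Hochberg adjustment over all genes tested in a class, threshold 0.05. Of the members, 74 of 20540 genes tested passed the filter in all nuclei and 28 to 62 in the classes. A member that passed the filter in only part of the classes is not counted in the others. CPM are TMM-scaled, and log2 changes are the fitted ones, ± SE. Named genes are 22 classic members and, per comparison, at most the 10 with the smallest adjusted p among those called in a class. Values named outside that rule were chosen after they were seen.

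The alternatives were DESeq2 1.42.0, no filter, no term for mice 1 to 4, runs of mouse numbers as a block, mice 1 to 4 left out, a stricter gate (4 UMIs), doubly gated nuclei kept, at least 500 genes per nucleus, thinning to equal depth, the Awake and Iso groups alone, and each mouse left out. The mitochondrial share as a covariate and all nuclei but the fibroblast-like were chosen after seeing the data. The fits were tested on simulated data. Promoters and coordinates are from RefSeq and GENCODE on GRCm38. Protein sequences were not used here, and the values of 1 member are not reported here, though it is in the counts. Scripts ran in Python 3.11.15 (numpy 2.4.6, pandas 2.3.3, scipy 1.17.1, matplotlib 3.10.9).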

Additional observations from a re-analysis of the deposited data

Results flagged for a closer look

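The 6 WT-Awake and the 4 fAD-Iso mice, the groups large enough, were tested for 22 classic members in all nuclei and for reported members where they were called. In 19 of 152 such tests (12.5%, where chance gives about 1 in 20), the highest or lowest mouse lay farther from the next than Dixon's 95% limit allows. Mouse 1 accounted for 7, mouse 4 for 5, mouse 19 for 4 and mice 12, 20 and 29 for 1 each.

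Mouse 1 stood above the other WT-Awake mice for Hspa8, with 253 CPM in all nuclei, 185 in CA1-like, 136 in CA3-like and 206 in DG-like nuclei. In all nuclei it also stood above them for Hsp90ab1 (294), Hspa1a (3.83) and Hspb1 (8.15). Mouse 4 stood apart from the other fAD-Iso mice for Hsf3 in all nuclei (10.6) and in astrocyte-like nuclei (119), for Hspa14 in oligodendrocyte-like nuclei (96.0) and, lower than the rest, for Dnajc1 in CA1-like (286) and CA3-like nuclei (253). Both are among mice 1 to 4, whose mitochondrial share was higher than that of the other 16 mice. What part that share had in these values was not tested.

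Mouse 19 stood above the other WT-Awake mice for Dnajb6 (131) and Dnajc5b (2.92) in all nuclei and for Dnajc5b in DG-like nuclei (6.04), and below them for Dnajc6 in CA1-like nuclei (182). Mouse 12 was above them for Dnajc5b in CA1-like nuclei (3.21). Mouse 29 was below them for Dnajb14 in all nuclei (38.3), and mouse 20 was above the other fAD-Iso mice for Hspa4l in CA3-like nuclei (61.7).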

How the results depend on the processing

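No paired analysis was possible because each mouse has a number of its own that no other group shares, so no replicate number pairs single mice across groups. The methods describe processing in batches that the labels do not assign to mice, and runs of consecutive numbers were fitted as a block in their place. The main counts of called members over 8 classes were 16 for isoflurane against awake, 22 for ketamine-xylazine against awake and 14 for ketamine-xylazine against isoflurane, those in all nuclei 5, 14 and 11, and those of partner genes 16, 37 and 15, in that order, which each list below keeps. With the runs of mouse numbers as a block they were 23, 0 and 0, in all nuclei 6, 0 and 0, and of partner genes 19, 0 and 0, since only mouse 29 is then set against the ketamine mice. Without mice 1 to 4 they were 5, 12 and 8, in all nuclei 2, 3 and 5, and of partner genes 5, 20 and 8. Thinned to equal depth they were 6, 15 and 5, and of partner genes 5, 26 and 6. With no term for mice 1 to 4 they were 12, 14 and 11, in all nuclei 4, 8 and 8, and of partner genes 8, 34 and 18. The mitochondrial share as a covariate gave 16, 11 and 8, in all nuclei 5, 8 and 6, and of partner genes 19, 18 and 4. The stricter gate gave 12, 14 and 11, and of partner genes 13, 32 and 9. With no filter they were 17, 30 and 24, of partner genes 15, 51 and 30, and for isoflurane by genotype 2 members and 4 partner genes. DESeq2 gave 20, 23 and 18, and in all nuclei 8, 15 and 15. All nuclei but the fibroblast-like gave 4, 10 and 5. Where the construction of an alternative (fewer mice, fewer UMIs) does not show the cause, the cause was not tested. The class comparison gave 321 to 367 calls (main 339), and the genotype comparison 0 under each alternative.

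On leaving out each mouse in turn, member calls ran from 9 to 21 for isoflurane against awake (9 without mouse 2), from 6 to 31 for ketamine-xylazine against awake (7, 14, 6 and 14 without mouse 25, 26, 27 and 28) and from 2 to 18 between the anesthetics (7, 6, 5, 2, 3 and 6 without mouse 15, 16, 18, 25, 27 and 28 and 9 without mouse 1). In all nuclei they ran from 2 to 8 (2 without mouse 2, 3 without mouse 3), 2 to 15 and 2 to 13 (lowest without mouse 25 in both), and for partner genes from 8 to 17 (8 without mouse 4), 9 to 48 and 0 to 23 (lowest without mouse 27 in both). They were 0 throughout for genotype and for isoflurane by genotype. No named result changed direction on leaving out a mouse. With the runs as a block 5 did: against awake, Dnajb14 in all nuclei (0.025), Hspa8 in DG-like nuclei (0.11), and Rbm3 in DG-like (0.14) and CA3-like nuclei (0.12), and against isoflurane, Rbm3 in DG-like nuclei (0.25). Depth limits rare members most: 18 of 78 were too low to compare between classes and 28 could be tested in microglia-like nuclei.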
